A study of Mus musculus with 15 samples.

Results

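The AP-1 and BATF transcription factors were followed through macrophage polarization as a set of 10 genes: Fos, Fosb, Fosl1, Fosl2, Jun, Junb, Jund, Jdp2, Batf and Batf3. They were taken from 18193 genes that had a probe set annotated to them alone, and each gene was read on whichever of its probe sets had the highest mean across the 15 arrays. The genes were chosen by family and not by a measured value, but with earlier results of these data known. The choice of probe set uses the mean level, and the results for Jdp2 and Fosl2 rest on it, as given with each. The cells were bone marrow derived mouse macrophages, cultured for 7 days with M-CSF, the growth factor of this lineage, and formed 5 groups of 3 samples. M0 cells received nothing further, M1 cells received E. coli LPS with interferon-gamma, and M2 cells received IL4 with IL13. The other two groups were IL4- and IL13-treated M2 cells that also received nutlin-3a, a molecule that frees p53 from MDM2, or 10058F4, labelled as a MYC inhibitor. The sources used here do not give strain, age and sex of the mice, nor doses, exposure times and vehicles. The samples are called biological replicates, with no word on separate mice or cultures, so each p-value describes the spread among these samples alone, and part of it may be technical. The title of the series names the effect of p53 as its subject.

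Members of this family share a basic leucine zipper, with which they pair with one another and hold DNA. JUN proteins pair with each other or with FOS proteins, and the dimers bind TGACTCA sites. Their genes include some of the fastest responders to growth factors and to Toll-like receptor signals, which reach them through MAP kinases. JDP2 pairs with JUN and represses. BATF proteins lack an activation domain of their own, pair with JUN proteins and bind composite sites together with IRF4 or IRF8. BATF3 is best known for its role in cross-presenting dendritic cells.

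Fos, Jdp2 and Batf lie next to one another on chromosome 12, with 2 long non-coding RNA genes and 1 pseudogene between them and no other protein-coding gene in the RefSeq order of the GRCm38.p6 assembly. RefSeq promoter windows were found for 9 of the 10 members, 11 windows in all, 3 of them for Jdp2. The 250 bases before each start were searched on both strands for TGACTCA, the AP-1 site, for TGACGT, the core of sites bound by CREB and ATF proteins, and for TGACATCA, a longer variant known from the Jun promoter. No searched motif contains another, and the motifs were picked after the windows and the values had been seen. A match in a member was kept only with 12 bases on each side of it inside the 250, which was not required for the shares of all windows. The stretches below are shown because the 3 neighbours each held a TGACGT while their levels moved differently, as given further on. Capitals mark the motif, and each stretch is written 5′ to 3′ along the gene.
Fos, chr12:85473812-85473841, plus strand: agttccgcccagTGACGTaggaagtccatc
Jdp2, chr12:85599290-85599319, plus strand: tccgtccccctcTGACGTgtggagctggca
Batf, chr12:85686610-85686639, plus strand: tttctaacttgtTGACGTttccgcccatgt
Jun, chr4:95052248-95052279, minus strand: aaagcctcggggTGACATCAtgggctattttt
The motif began 66 bases before the start in Fos, 114 bases before one of the 3 starts in Jdp2, 98 in Batf and 45 in Jun. TGACGT in either direction occurred in 6.469% of 32851 RefSeq windows, TGACATCA in 2.928% and TGACTCA in 4.463%. No match to TGACTCA was kept in the members' windows. A match describes letters in a window and not a bound site.

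Values are log2 expression after RMA, so a difference of 1 is a 2-fold change. Across probe sets, arrays of one group correlated with r from 0.989 to 0.997, lowest in M1. As a measure of RNA integrity, the 3′ control probe set of beta-actin exceeded the 5′ one by 0.178 ± 0.0444 (SD, n = 3) in M1, 0.351 ± 0.0543 in M0 and 0.382 ± 0.0302 in M2. The excess was 0.453 ± 0.0346 with nutlin-3a and 0.489 ± 0.025 with 10058F4, so for beta-actin it moved with M1 and with the agents. For Gapdh the same difference was -0.162 ± 0.0347 in M1 and -0.284 to -0.272 in the other 4 groups, so in M1 it moved the other way from beta-actin, and with the agents it stayed within the range of the M2 arrays. The part of RNA integrity in the results was not tested. Of 10 macrophage markers, 8 to 10 lay above the arrays' 40th percentile on all 3 arrays of each group. With nutlin-3a, all 8 listed p53 targets rose, among them Mdm2, by 1.99 ± 0.09 (SE) over M2, or by 0.31 (adjusted p = 0.0677) with plain probe sets alone.

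Of the 10 members, 9 lay above the 40th percentile on all 15 arrays and were tested; Fosb lay above it on 0 of 15 and was not. All 9 differed among the 5 groups by limma's moderated F test at an adjusted p under 0.05, against 78.1% of the 13703 genes tested, so this share says little about the family. In M1 against M0, 5 of 9 rose and 1 fell, where 33.6% of all tested genes rose and 39.1% fell. The members' median difference there was 0.58, beside -0.0048 for all genes. In M2 against M0, 4 rose and 2 fell, where 12.7% of all genes rose and 18.4% fell, with a median of 0.35. M1 against M2 gave 5 higher and 3 lower members, where the background was 28.1% and 36.5%, and a median of 0.38. Centring every array on its own median turned these splits: all genes then went 55.6% higher and 25.6% lower in M1 against M0, 20.4% and 13.1% in M2 against M0, and 50.3% and 26.6% in M1 against M2. The members then went 8 higher and 0 lower, 5 and 2, and 5 and 2. Their counts in M1 against M0 thus moved with the scaling as those of all genes did. In M1 against M2 their higher count stayed at 5 and their lower count went from 3 to 2.

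Among M2 cells, 1 of 9 members rose and 2 fell with nutlin-3a, against a background of 9.56% and 5.85%, with a median of -0.06. With 10058F4, 3 rose and 4 fell, against 10.6% and 10.2%, with a median of -0.02. In nutlin-3a against 10058F4, 1 member was higher and 2 were lower, against 4.24% and 2.72%. After centring, nutlin-3a against M2 gave 1 and 3 members where 6.76% of all genes were higher and 9.63% lower, and the agents' comparison 1 and 2 where 3.17% and 3.96% were; 10058F4 against M2 kept 3 and 4. Both agents were compared with the same M2 arrays, and M1 and M2 with the same M0 arrays, so these comparisons are not independent.

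**Figure D1:**
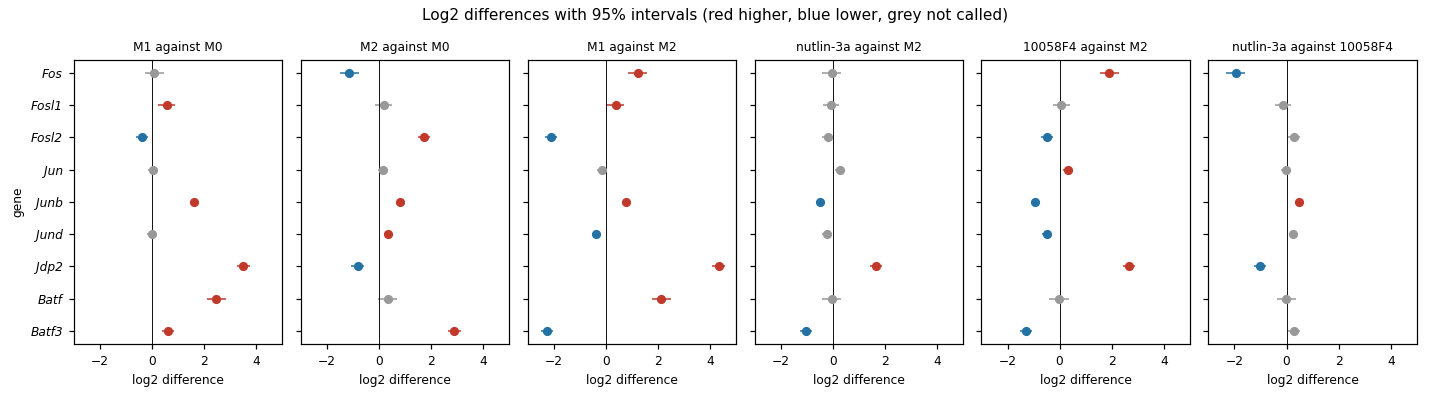
Log2 differences of the 9 tested members (rows) in 6 comparisons (panels), as points with 95% intervals from limma, red where a member rose, blue where it fell and grey where it did not pass an adjusted p of 0.05. Jdp2 lies furthest to the right in M1 against M0 (3.51) and with each agent (1.66 and 2.67), and Batf3 in M2 against M0 (2.90).

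Among the FOS subunits, Fos, the founding immediate early gene of the family, was low in M2 cells with or without nutlin-3a and highest in M2 cells given 10058F4. Its log2 level was 9.15, 9.93 and 9.54 in M0 and 9.40, 9.93 and 9.59 in M1. In M2 it was 8.23, 8.55 and 8.47, below every M0 and M1 array. With nutlin-3a it was 8.43, 8.46 and 8.24, overlapping M2, and with 10058F4 it was 10.43, 10.30 and 10.24, above every other array of the series. Fos fell by 1.13 ± 0.17 (SE) in M2 against M0 (limma, adjusted p = 0.000171). It rose 3.75-fold with 10058F4 (difference 1.91 ± 0.17, adjusted p = 2.81e-06), to 0.78 above M0 (adjusted p = 0.0027). With nutlin-3a the difference from M2 was -0.04, with a 95% interval of -0.40 to 0.33, and the agents differed from each other by -1.94 ± 0.17 (adjusted p = 5.06e-06). Fos was thus higher with 10058F4 than with nutlin-3a by direct test.

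Between M1 and M0, Fos differed by 0.10, with an interval of -0.26 to 0.47 and an adjusted p of 0.603. This value depends on scaling. When arrays were centred on their own medians, the median gene went from -0.0048 to 0.32 in this comparison, and Fos then stood at 0.43 (adjusted p = 0.0211, within a range of 0.0211 to 0.942 over all alternatives).

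Fosl2, which encodes the FOS-related FRA2, was the FOS subunit that rose in M2. Its level was 7.19, 7.30 and 7.09 in M0, 6.71, 7.07 and 6.68 in M1, and 8.83, 8.96 and 8.99 in M2. With nutlin-3a it was 8.69, 8.71 and 8.81, and with 10058F4 it was 8.61, 8.33 and 8.37. The M2 arrays, with or without an agent, all lay above the M0 arrays, and the M1 arrays all lay below them. The rise in M2 was 3.33-fold (1.73 ± 0.10, limma, adjusted p = 3.23e-08). 10058F4 lowered it by -0.49 ± 0.10 from M2 (adjusted p = 0.00411), and nutlin-3a gave -0.19, with an interval of -0.41 to 0.03 (adjusted p = 0.253). The agents' own difference of 0.30 did not pass (adjusted p = 0.117).

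The fall of Fosl2 in M1 against M0 was -0.37 ± 0.10 (adjusted p = 0.0058). It shrank to -0.04 (adjusted p = 0.666) when arrays were centred on their median and to -0.09 (adjusted p = 0.418) when they were quantile normalized again. The dimmer second probe set of Fosl2 gave 0.58 ± 0.09 in the opposite direction (adjusted p = 6.21e-05). In M2 against M0 that probe set gave 0.23 (adjusted p = 0.0845), and in M1 against M2 it gave 0.35 where the brighter one gave -2.10. With 10058F4 it gave -0.06 (adjusted p = 0.706). The Fosl2 results therefore rest on the brighter probe set.

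Fosl1, which encodes FRA1, was dim, with arrays from 4.50 to 5.45. Its levels were 4.61, 4.66 and 4.93 in M0 and 5.11, 5.45 and 5.36 in M1, which did not overlap. It rose in M1 by 0.58 ± 0.15 (limma, adjusted p = 0.00336). So did the dimmer probe sets of Fosl2 (0.58), Jund (0.42) and Jdp2 (0.83), while that of Jun fell (-0.42). Whether the rise is particular to Fosl1 was not tested. M2 arrays ranged from 4.70 to 5.13, nutlin-3a arrays from 4.50 to 5.05 and 10058F4 arrays from 4.93 to 5.07, and neither agent passed the test against M2. In M1 against M2 the difference was 0.38 (adjusted p = 0.0369) with overlapping arrays. That call was lost on leaving out M1 replicate 2 (adjusted p = 0.114) or 3 (0.0915), or M2 replicate 1 (0.159) or 3 (0.0682). The second Fosl1 probe set did not pass the filter. Fosb gave group means from 3.42 in M2 to 3.70 with 10058F4, all under the percentile of 4.34 to 4.52, so its level was not shown to be above background.

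**Figure D2:**
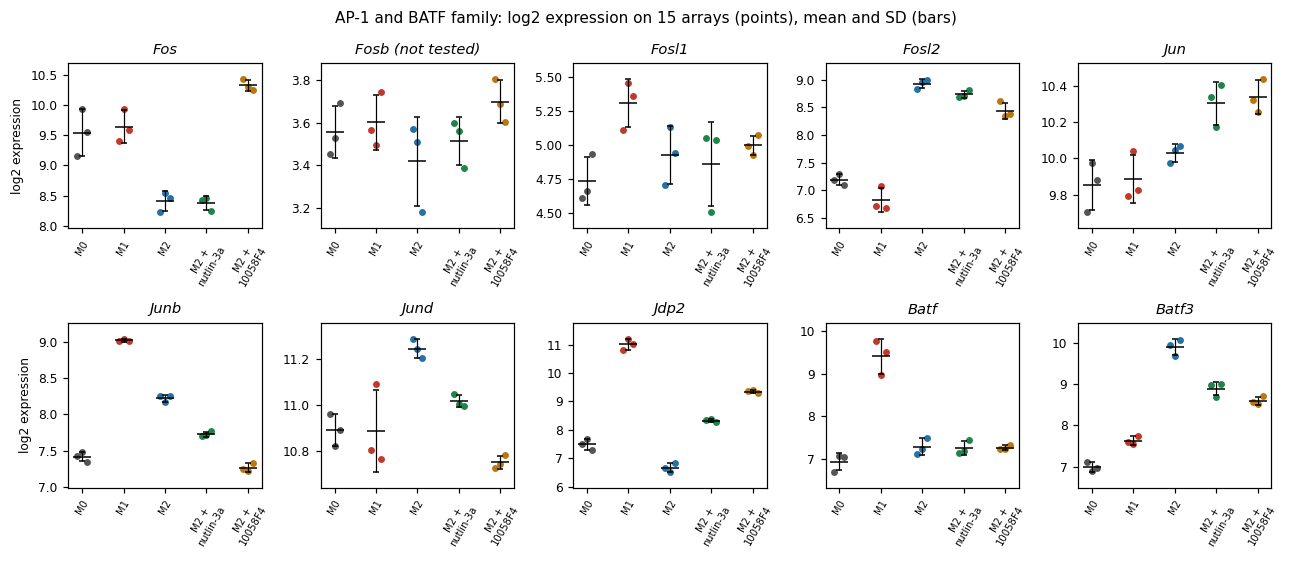
Log2 expression of the 10 members on each of 15 arrays (points) by group (x axis), with the group mean and SD of 3 arrays (bars). The axes do not start at 0 and differ between genes, so shapes can be compared between panels but heights cannot; the 10058F4 arrays of Fos, the M1 arrays of Junb, Jdp2 and Batf and the M2 arrays of Batf3 lie above all others.

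Of the JUN subunits, Junb, the JUN protein that in many settings tempers JUN, moved most. Its level was 7.43, 7.48 and 7.35 in M0, 9.003, 9.041 and 9.006 in M1 and 8.25, 8.17 and 8.25 in M2. With nutlin-3a it was 7.70, 7.72 and 7.76, and with 10058F4 it was 7.24, 7.22 and 7.33. No 2 groups overlapped. Junb rose 3.03-fold in M1 (1.60 ± 0.06, limma, adjusted p = 1.07e-11) and 1.75-fold in M2 (0.80 ± 0.06, adjusted p = 1.75e-07), and M1 exceeded M2 by 0.80 (adjusted p = 1.67e-08). Nutlin-3a lowered it by -0.49 ± 0.06 (adjusted p = 7.48e-05) and 10058F4 by -0.96 ± 0.06 (adjusted p = 8.16e-08), and the agents differed by 0.46 (adjusted p = 0.000156). With 10058F4 the level stood -0.15 from M0, which did not pass (adjusted p = 0.0583).

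Jund, the JUN family member with the steadiest expression in many cells, stayed within 10.72 to 11.29 on all arrays. Its levels were 10.96, 10.82 and 10.89 in M0 and 11.29, 11.24 and 11.20 in M2, without overlap. With 10058F4 they were 10.72, 10.74 and 10.78, below every M2 array and every nutlin-3a array. The agents' own difference of 0.27 did not pass (limma, adjusted p = 0.0551), though 4 of 17 alternatives called it. Jund rose in M2 by 0.35 ± 0.08 (limma, adjusted p = 0.00323) and fell by 0.49 with 10058F4 (adjusted p = 4e-04). A second, dim probe set of Jund passed in neither, with 0.13 (adjusted p = 0.308) and -0.26 (adjusted p = 0.0639). With nutlin-3a the arrays, at 11.04, 11.00 and 10.99, were also all below M2, by -0.23 ± 0.08, but missed the threshold (adjusted p = 0.0625); 6 of 17 alternatives called it, over a range of 0.0063 to 0.185.

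Replicate 2 of M1 lay above the other M1 arrays for Jund, at 11.09 beside 10.80 and 10.76. M1 differed from M2 by -0.36 (adjusted p = 0.000976), but by -0.12 (adjusted p = 0.174) with arrays centred on their median, and by 0.29 (adjusted p = 0.0123) on the dimmer probe set. M1 against M0 gave -0.01 (adjusted p = 0.954) as deposited and 0.32 (adjusted p = 0.00149, lowest to highest over alternatives 0.0015 to 0.968) after centring, to 2 decimals the value of the median gene.

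Jun itself, the main partner in AP-1 dimers, moved little on its brighter probe set. Against M0 it was higher with nutlin-3a, by 0.45 ± 0.09 (limma, adjusted p = 0.00156), and with 10058F4, by 0.49 ± 0.09 (adjusted p = 0.000796). M0 arrays were at 9.70, 9.97 and 9.88, M1 at 9.79, 10.04 and 9.83 and M2 at 9.98, 10.04 and 10.07. Those of nutlin-3a, at 10.34, 10.17 and 10.40, and of 10058F4, at 10.33, 10.26 and 10.44, all lay above the M2 arrays. The rise over M2 with 10058F4 was 0.31 ± 0.09 (limma, adjusted p = 0.0252), and with nutlin-3a 0.27 ± 0.09 just missed (adjusted p = 0.056). With the replicate number as a block, the nutlin-3a difference passed (adjusted p = 0.0489); over all alternatives its adjusted p ran from 0.0214 to 0.176 and 7 of 17 called it.

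The call for 10058F4 against M2 was not firm either. It was lost without M2 replicate 1 (adjusted p = 0.0886) or 2 (0.0561), or 10058F4 replicate 1 (0.0628) or 3 (0.106). The second probe set of Jun gave 0.12 (adjusted p = 0.342). In M1 against M0, Jun gave 0.03, with an interval of -0.16 to 0.23 (adjusted p = 0.757). The second probe set showed a fall there, of -0.42 ± 0.08 (adjusted p = 0.000309), while centring gave 0.36 (adjusted p = 0.00175), so no direction holds across settings. In M1 against M2, Jun gave -0.15 (adjusted p = 0.171), or 0.10 (adjusted p = 0.321) after centring. The second probe set gave -0.52 ± 0.08 there (adjusted p = 5.1e-05).

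Jdp2, the JUN dimerization partner that represses AP-1 sites, had the largest single difference of the family, between M1 and M2 (4.33). Its level was 7.50, 7.67 and 7.30 in M0, 10.80, 11.21 and 11.01 in M1 and 6.66, 6.54 and 6.83 in M2. With nutlin-3a it was 8.34, 8.38 and 8.27 and with 10058F4 it was 9.36, 9.38 and 9.30. The 5 groups did not overlap, in the order M1, 10058F4, nutlin-3a, M0 and M2, and each of the 4 steps between neighbours passed the test, the weakest at an adjusted p of 6.3e-05. Jdp2 rose 11.4-fold in M1 (3.51 ± 0.11, limma, adjusted p = 2.74e-12) and fell by 0.82 in M2. Over M2 it rose 3.15-fold with nutlin-3a (1.66 ± 0.11, adjusted p = 3.47e-07) and 6.39-fold with 10058F4 (2.67 ± 0.11, adjusted p = 1.57e-09), and 10058F4 exceeded nutlin-3a by 2.03-fold (adjusted p = 3.84e-05).

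A second probe set of Jdp2 was dim, with a mean of 4.79 over all arrays beside 8.57. It rose in M1 by 0.83 ± 0.11 (adjusted p = 9.29e-06). In M1 against M2 it gave 0.59 ± 0.11 (adjusted p = 0.000273) where the brighter one gave 4.33. It did not show the fall in M2 (0.24, adjusted p = 0.12) nor the rises with nutlin-3a (-0.20, adjusted p = 0.277) and 10058F4 (0.03, adjusted p = 0.881). In nutlin-3a against 10058F4 it gave -0.23 (adjusted p = 0.303). Which transcripts each probe set reads was not analysed here, so the effects of both agents and of IL4 with IL13 on Jdp2 rest on 1 probe set.

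**Figure D3:**
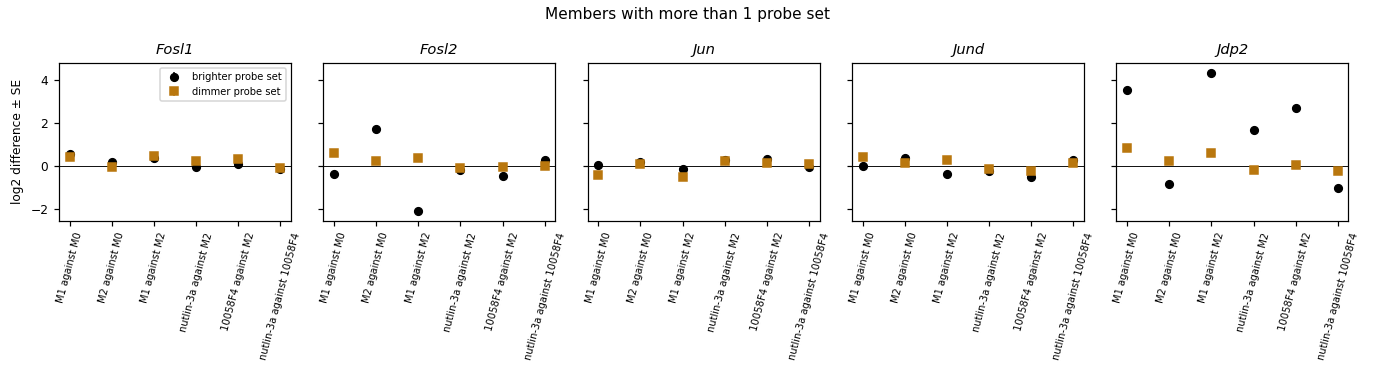
Log2 differences of the 5 members that had more than 1 probe set (panels) in 6 comparisons (x axis), for the brighter probe set used throughout (black circles) and the dimmer one (orange squares), with SE from a fit over all probe sets where one was fitted. For Jdp2 the probe sets share the direction in M1 (3.51 and 0.83), while with 10058F4 they give 2.67 and 0.03; for Fosl2 they point in opposite directions in M1 against M2 (-2.10 and 0.35).

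Batf was highest in M1, and Batf3 in M2. Batf was at 6.70, 7.07 and 7.05 in M0 and at 9.77, 8.97 and 9.50 in M1. M2 arrays gave 7.13, 7.23 and 7.50, nutlin-3a arrays 7.14, 7.19 and 7.45, and 10058F4 arrays 7.23, 7.23 and 7.33. M1 lay far above the other 4 groups, which were close together. The rise in M1 was 5.56-fold over M0 (2.47 ± 0.17, limma, adjusted p = 9.96e-09) and 4.36-fold over M2 (2.13 ± 0.17, adjusted p = 5.31e-08). In M2 the difference from M0 was 0.35, with an interval of -0.02 to 0.72 (adjusted p = 0.142). Neither agent moved it past the test, with -0.03 for nutlin-3a (interval -0.40 to 0.34) and -0.02 for 10058F4 (interval -0.39 to 0.34).

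Batf3 was highest in M2, at 9.95, 9.68 and 10.06, against 7.12, 6.90 and 6.96 in M0 and 7.59, 7.54 and 7.75 in M1. With nutlin-3a it was 8.97, 8.70 and 8.99, and with 10058F4 it was 8.57, 8.50 and 8.70. The M0, M1 and M2 arrays did not overlap, and both agents' arrays lay between M1 and M2. Batf3 rose 7.48-fold in M2 (2.90 ± 0.11, limma, adjusted p = 2.68e-10) and 1.55-fold in M1 (0.63 ± 0.11, adjusted p = 0.00013). Nutlin-3a lowered it by -1.01 ± 0.11 from M2 (adjusted p = 3.47e-05) and 10058F4 by -1.30 ± 0.11 (adjusted p = 1.5e-06). With the agents it was still 3.71-fold and 3.03-fold above M0. The agents' difference of 0.29 did not pass (adjusted p = 0.142) but did with the replicate block (adjusted p = 0.0274), in a range of 0.0274 to 0.361 over all alternatives.

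Batf and Batf3 are also known from lymphocytes and dendritic cells, so markers of those cells were read beside them. In bulk RNA a change in the share of a cell type and a change in RNA per cell cannot be told apart. Of 9 dendritic cell markers measured, 6 lay above the percentile on all arrays of M0, M2 and both agents and 7 in M1, and their mean level stayed between 5.21 and 5.58 on all 15 arrays. In M2, where Batf3 rose, 0 of 8 tested rose (limma) and 2 fell, Cd24a with -1.29 and Cadm1 with -0.79, beside 12.7% and 18.4% of all genes, and with each agent 0 of 8 moved in either direction. In M1, 3 of 8 rose and 2 fell, beside 33.6% and 39.1% of all genes, or 6 and 2 after centring, beside 55.6% and 25.6%. Cd24a, under the percentile on all M1 arrays, was at least 5.99-fold lower there than in M0, and Cadm1 gave -2.65. Xcr1, a receptor of cross-presenting dendritic cells, lay under the percentile on every array of M0, M2 and both agents and rose in M1, to a mean of 6.05.

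In M1, where Batf rose, 4 of 4 tested T and NK cell markers were also higher, with a median of 0.43, where 33.6% of all tested genes rose. After centring 4 of 4 were still higher, beside 55.6% of all genes. Cd3e rose by 0.44, and Ncr1, under the percentile on all M0 arrays, was at least 1.42-fold higher. The mean level of the T and NK cell markers was 5.01 to 5.14 on M1 arrays and 4.60 to 4.69 on M0 arrays, and Cd3g lay under the percentile on all 15. These levels lie not far above the percentile of 4.34 to 4.52. In M1 against M0 the median of all genes was -0.0048, but 0.10 without the filter on low values and -0.20 with a 60th percentile filter. A rise was not particular to these markers: of 6 tested neutrophil markers, 4 rose and 1 fell in M1, with a median of 0.47. That was beside 33.6% and 39.1% of all genes, or 5 and 0 after centring, beside 55.6% and 25.6%. Of 4 tested B cell markers, 2 rose and 1 fell in M1 (3 and 1 after centring), beside the same shares. In M2, 2 rose and 0 fell, beside 12.7% and 18.4%, or 3 and 0 after centring, beside 20.4% and 13.1%. With each agent 0 rose and 2, Cd79b and Pax5, fell. All genes there went 9.56% higher and 5.85% lower with nutlin-3a, and 10.6% and 10.2% with 10058F4. Cd79b gave -0.49 with nutlin-3a, where 2 of 3 arrays lay above the percentile, and with 10058F4, where 0 of 3 did, it was at least 1.4-fold lower. The calls of Pax5, at -0.32 and -0.31, were lost on leaving out most single arrays, with adjusted p up to 0.114 and 0.0963. The mean level of the 5 measured B cell markers was 5.44 to 5.62 in M2 and 5.09 to 5.26 with the agents. The part of these markers in the Batf and Batf3 results was not tested.

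Among 9 tested partners of BATF proteins, Irf4 stood out. It was at 7.44, 7.18 and 7.37 in M2 and between 3.84 and 4.26 on the M0 and M1 arrays, all of which lay under the percentile. With nutlin-3a it was 5.77, 5.85 and 5.94, and with 10058F4 it was 4.88, 4.75 and 4.85. Irf4 was at least 7.82-fold higher in M2 than in M0 (limma, adjusted p = 1.43e-11), a bound set by the percentile in place of the lower M0 values, here and for other genes given as at least so many fold. It was lowered from there by -1.48 with nutlin-3a (adjusted p = 1.52e-07) and by -2.50 with 10058F4 (adjusted p = 6.34e-10). The agents differed by 1.03 (adjusted p = 6.17e-06). Irf8 rose by 0.58 in M1 (adjusted p = 5.04e-05) and fell with 10058F4 (-0.45). In M2 it gave -0.27, a call that was lost after centring and on leaving out any 1 of the 6 arrays (adjusted p up to 0.21). The group with the highest Batf3 thus also had the highest Irf4, and the group with the highest Batf the highest Irf8. Over the list, 3 rose and 4 fell in M1, near the 33.6% and 39.1% of all tested genes. In M2, 2 rose and 3 fell, where 12.7% and 18.4% of all genes did. With nutlin-3a, 1 rose and 2 fell (0 and 3 after centring), where 9.56% and 5.85% did, and with 10058F4 1 rose and 5 fell, where 10.6% and 10.2% did. These shares of all genes are repeated below beside each list.

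Of 14 tested ATF and CREB relatives, which can pair with JUN proteins, 9 rose and 4 fell in M1 against M0, beside 33.6% and 39.1% of all genes (limma). After centring these were 10 and 4, beside 55.6% and 25.6%. In M2 against M0, 4 rose and 0 fell, beside 12.7% and 18.4%, or 5 and 0 after centring, beside 20.4% and 13.1%. With nutlin-3a 3 rose and 3 fell, beside 9.56% and 5.85%, and with 10058F4 4 rose and 3 fell, beside 10.6% and 10.2%. Batf2, the third BATF gene and known for its response to interferon-gamma, rose by 4.06 ± 0.15 in M1 (adjusted p = 1.03e-11). Crem, a cyclic AMP response gene, rose by 2.42 ± 0.09 in M1 (adjusted p = 1.18e-11). Atf3, a stress-induced repressor, rose by 1.26 in M1 and 0.91 in M2 and fell with 10058F4, with -0.75. With nutlin-3a it gave -0.41 (adjusted p = 0.0431), a call that was lost on leaving out any of the M2 arrays or nutlin-3a replicate 1 or 2, with adjusted p up to 0.18. Atf5 rose by 1.21 with nutlin-3a and by 1.04 with 10058F4.

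**Figure D4:**
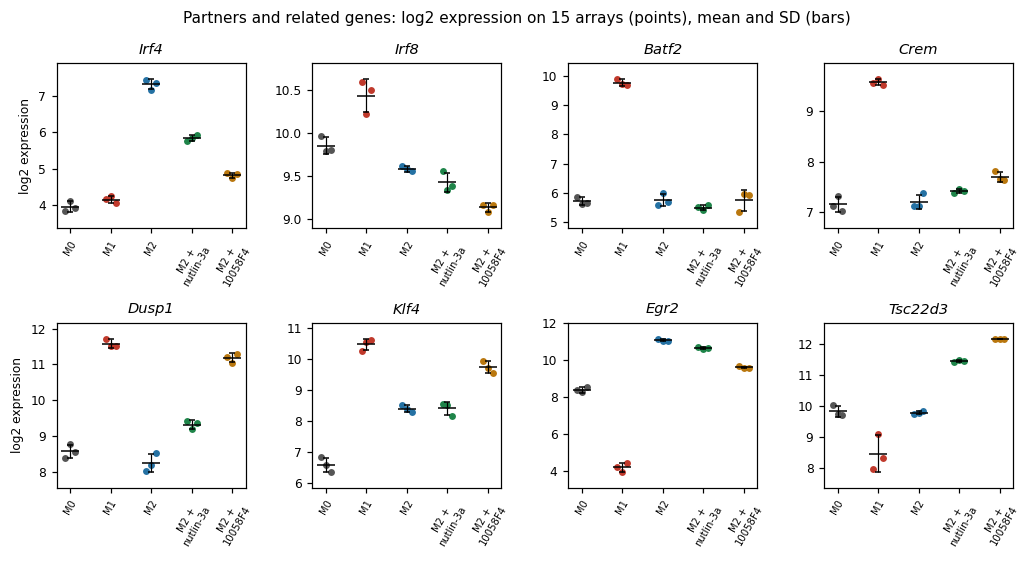
Log2 expression of 8 partners and related genes on each of 15 arrays (points) by group (x axis), with group mean and SD of 3 arrays (bars); axes do not start at 0 and differ between genes. Irf4 is high in M2 and lower with each agent, while Dusp1 is at 11.04 or more in M1 and with 10058F4 and at 9.41 or less in M0, M2 and with nutlin-3a.

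Upstream of AP-1, 18 genes of MAP kinases and of kinases above or below them in the pathway were tested. In M1, 6 rose and 6 fell, beside 33.6% and 39.1% of all genes, or 11 and 6 after centring, beside 55.6% and 25.6%. In M2, 3 rose and 8 fell, beside 12.7% and 18.4%. With nutlin-3a, 4 rose and 1 fell, beside 9.56% and 5.85%, but centring turned this to 3 and 4, beside 6.76% and 9.63%. With 10058F4, 2 rose and 7 fell, beside 10.6% and 10.2%. Of 9 phosphatases that switch MAP kinases off, 6 rose and 2 fell in M1, beside 33.6% and 39.1% of all genes. In M2, 4 of them rose and 1 fell, beside 12.7% and 18.4%. With nutlin-3a 2 rose and 0 fell (2 and 1 after centring), beside 9.56% and 5.85%, and with 10058F4 2 rose and 2 fell, beside 10.6% and 10.2%. Dusp1, the immediate early member of that group, was at 8.38, 8.76 and 8.56 in M0, 11.72, 11.51 and 11.51 in M1 and 8.03, 8.19 and 8.52 in M2. It was 9.41, 9.19 and 9.35 with nutlin-3a and 11.22, 11.04 and 11.30 with 10058F4. Dusp1 rose by 3.01 ± 0.13 in M1 (limma, adjusted p = 4.83e-11), by 1.07 with nutlin-3a (adjusted p = 7.71e-05) and by 2.94 with 10058F4 (adjusted p = 2.06e-09). Jdp2 rose in the same 3 comparisons, of which the last 2 share the M2 arrays and, for Jdp2, rest on its brighter probe set.

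Of 10 tested genes that regulate the stability of AP-1 proteins or repress them, 4 rose and 0 fell with nutlin-3a (3 and 0 after centring), beside 9.56% and 5.85% of all genes (limma). With 10058F4, 3 rose and 1 fell, beside 10.6% and 10.2%. In M1, 3 rose and 5 fell, near the 33.6% and 39.1% of all genes, or 4 and 2 after centring, beside 55.6% and 25.6%. Tsc22d3, which encodes the glucocorticoid-induced AP-1 inhibitor GILZ, fell by 1.37 in M1 and rose by 1.66 ± 0.20 with nutlin-3a (adjusted p = 8.17e-05) and by 2.39 ± 0.20 with 10058F4 (adjusted p = 1.37e-06). Of 22 tested genes known as AP-1 targets in macrophages, 16 rose and 5 fell in M1, beside 33.6% and 39.1% of all genes, or 17 and 5 after centring, beside 55.6% and 25.6%. Their median difference there was 1.39. Ptgs2, the inducible cyclooxygenase, and Il6 lay under the percentile on all M0 arrays and were at least 277-fold and at least 70.02-fold higher in M1. In M2, 6 rose and 2 fell, beside 12.7% and 18.4%. With nutlin-3a 2 rose and 3 fell, beside 9.56% and 5.85%, and with 10058F4 3 rose and 7 fell, beside 10.6% and 10.2%. Plau, the urokinase gene, rose by 0.95 with nutlin-3a (adjusted p = 0.00915) and fell by 1.76 with 10058F4 (adjusted p = 5.47e-05).

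Set side by side, the 3 neighbours on chromosome 12 did not pass the test in the same comparisons. In M1 against M0, Jdp2 and Batf rose, by 3.51 and 2.47, while Fos gave 0.10 and did not pass. With 10058F4 against M2, Fos and Jdp2 rose, by 1.91 and 2.67, while Batf gave -0.02. With nutlin-3a, Jdp2 alone of these 3 passed the test. In M2 against M0, Fos and Jdp2 fell, with -1.13 and -0.82. The Jdp2 results in M2 and with the agents rest on its brighter probe set, as the dimmer one passed in none of them. The printed stretches of all 3 hold TGACGT, and nothing is drawn from that about the factors bound there.

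The order of levels also separated the members. Junb ran from M1 through M2 and nutlin-3a to M0, each step passing the test. Batf3 ran from M2 through nutlin-3a and 10058F4 to M1 and M0, with nutlin-3a and 10058F4 not separated (adjusted p = 0.142). For Fosl2, M2, nutlin-3a and 10058F4 were not separated as neighbours (adjusted p = 0.253 and 0.117), and M0 and M1 followed. Fos placed 10058F4 first, M1 and M0 together (adjusted p = 0.603), then M2 and nutlin-3a together (adjusted p = 0.918). For Fosl1, Jun and Jund no neighbouring groups differed by the test.

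As a description over the 15 arrays, which share groups and hybridisations, the tested genes whose levels ran most like each member's by Pearson correlation were as follows. Batf3 ran with Flt1 (0.98), a VEGF receptor, and Retnla (0.97), an IL4-induced gene. Fosl2 ran with Ankrd40 and Gatm (0.99 each), and Junb with Psmb10 (0.99), an interferon-induced proteasome subunit, and Gadd45b (0.98). Jdp2 ran with Gfpt1 (0.98), and Batf with Hspa1a and Hspa1b (0.99 each), near-identical heat shock genes whose probes may read each other. The closest match of Fos, Ints5, reached 0.88, that of Fosl1, Fam184a, 0.89, that of Jund, Wdr45b, 0.92, and that of Jun, Adam8, 0.95. These correlations follow the 5 group means.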

How the data were processed

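RMA was run by the authors, per the submitters' processing notes, in a version that the sources used here do not give, and the values they deposited lie on a log scale taken to be log2 from their range. RMA brings arrays towards one distribution, which can hide a shift shared by most genes. The deposited array medians still differed, as centring on them moved the median gene in M1 against M0 from -0.0048 to 0.32. Of 45101 probe sets, 34945 named 1 gene, 932 several and 9160 none. The filter kept 13703 of 18193 genes, those with 3 or more arrays above the 40th percentile of the array. limma (3.58.1, in R 4.3.3; lmFit and eBayes) was fitted to the 5 group means of all 15 arrays (10 residual degrees of freedom, 3.86 prior). Pairwise contrasts were adjusted by Benjamini-Hochberg over all tested genes and called at 0.05. Second probe sets were read from a separate fit over all probe sets that passed the filter. With 3 arrays per group, precision is limited.

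The members and gene lists were chosen with earlier results of these data known. Named genes were all members and a part of the genes that this rule gave: up to 4 called genes per list and comparison with the largest difference, Irf4, Irf8, Atf3, Maf, Dusp1, Egr1 and Nr4a1, and the 3 genes most correlated with each member. Not every gene of this rule is reported here. Replicate numbers recur across groups; deviations of same-numbered arrays correlated with r of 0.232 to 0.424 in M2 and M0, 0.337 to 0.381 in nutlin-3a and M2, 0.308 to 0.368 in 10058F4 and M2 and 0.34 to 0.408 between agents, above the limit of 0.1, but from 0.055 in M1 and M0 and 0.0635 in M1 and M2. The alternatives were other filters, other probe set choices, repeated quantile normalization, median centring, trended or robust eBayes, array weights, only the arrays compared, the replicate block and each array left out. Tables and plots used pandas 2.3.3 and matplotlib 3.10.9 in Python 3.11.15.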

Additional observations from a re-analysis of the deposited data

How the results depend on the processing

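Of the members' differences recomputed under the alternatives, 837 of 912 kept direction and side of the threshold, 19 lost a call and 27 gained one. The sign changed in 35, among them 3 of the lost and 3 of the gained calls, and the other 29 were called in neither fit. The number of members called in nutlin-3a against M2 went from 3 to 5 with the 60th percentile filter, array weights, only the 6 arrays or trended eBayes, and from 3 to 5 in nutlin-3a against 10058F4 with array weights. The other counts stayed within 1.5 times. The replicate block added Jun in nutlin-3a against M2 (adjusted p = 0.0489) and Batf3 in nutlin-3a against 10058F4 (adjusted p = 0.0274) and changed no other member's call. The probe set suffixes mattered for Jdp2: with plain ones alone M2 against M0 gave 0.24 and nutlin-3a against M2 gave -0.20. With the mean of all probe sets Fosl1 gave 0.0858 in nutlin-3a against M2, Fosl2 0.1043 in M1 against M0, Jun -0.1939 in M1 against M0 and 0.0267 in nutlin-3a against 10058F4, and Jund 0.2088 in M1 against M0. Centring gave Jun 0.0963 in M1 against M2 and Jund 0.3206 in M1 against M0, and repeated quantile normalization gave Jund 0.0369 there. With array weights Batf gave 0.0051 for nutlin-3a relative to M2 and 0.0061 relative to 10058F4, and Jun -0.0219 in M1 against M0. Leaving out 1 array at a time, uncalled differences crossed 0. In M1 against M0, Fos ran from -0.0959 to 0.2957, Jun from -0.0444 to 0.0923 and Jund from -0.107 to 0.0555. In nutlin-3a against M2, Batf ran from -0.1261 to 0.0781, Fos from -0.1296 to 0.032 and Fosl1 from -0.1766 to 0.1151. In 10058F4 against M2, Batf ran from -0.1049 to 0.0826 and Fosl1 from -0.0415 to 0.1746. In nutlin-3a against 10058F4, Batf ran from -0.1016 to 0.0575, Fosl1 from -0.2285 to 0.0442 and Jun from -0.0847 to 0.0301. Where no cause is given, the cause was not tested. Fosl1 and Fosb lie near or under the percentile, which limits what their values show.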

Other observations

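Of 15 other immediate early genes tested, 9 rose and 1 fell in M1 against M0, beside 33.6% and 39.1% of all genes, or 13 and 1 with arrays centred on their median, beside 55.6% and 25.6% (limma). In M2 against M0 5 rose and 1 fell, beside 12.7% and 18.4%, or 7 and 1 after centring. With nutlin-3a 3 rose and 3 fell, beside 9.56% and 5.85%, and centring turned this to 1 and 4, beside 6.76% and 9.63%. With 10058F4 2 rose and 4 fell, beside 10.6% and 10.2%. Egr2, a zinc finger factor of IL4-treated macrophages, lay under the percentile on all M1 arrays and was at least 14.9-fold lower there than in M0, with the percentile standing in for the M1 values (adjusted p = 2.54e-13). It rose by 2.69 in M2 and fell by 1.48 with 10058F4 (adjusted p = 2.56e-07), where Fos rose. Klf4 rose by 3.87 in M1, by 1.80 in M2 and by a further 1.34 with 10058F4. Ier5 fell by 1.17 with 10058F4. Egr1 did not pass in any of the 6 comparisons with all arrays. In M1 it was at 7.53, 5.22 and 7.83, beside a mean of 6.49 in M0, a difference of 0.37 (adjusted p = 0.481). Without M1 replicate 2 the difference was 1.19 (adjusted p = 1.71e-05), and with array weights it was 0.91 (adjusted p = 0.0143), so the call depends on that array. Over all alternatives the difference ran from -0.12 to 1.19. Without that array M1 also exceeded M2, by 0.62.

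Among 16 tested bZIP relatives of the MAF, BACH, NFE2L and C/EBP groups, 7 rose and 7 fell in M1, near the 33.6% and 39.1% of all genes, or 8 and 5 after centring, beside 55.6% and 25.6%. In M2 4 rose and 5 fell, beside 12.7% and 18.4%. With nutlin-3a 6 rose and 0 fell, beside 9.56% and 5.85%, but 3 and 0 after centring, beside 6.76% and 9.63%. With 10058F4 7 rose and 2 fell, beside 10.6% and 10.2%. Nfil3 rose in both polarized states, by 2.02 in M1 and 2.99 in M2. Cebpa, a myeloid lineage factor, fell by 2.84 in M1 and rose by 0.98 in M2, and Cebpb rose by 1.74 in M1. Maf fell by 1.07 in M2 and rose by 0.66 with 10058F4.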
